A study of Mus musculus with 2 samples.

Results

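*Csf1r*, *Cx3cr1* and *C1qa*, 3 of the 500 genes of a MERFISH probe panel, were followed through single cells and tissue compartments of the embryonic mouse head. They were taken by name, as the columns of these 3 genes in both count tables, and the rule has no threshold on a measured value. MERFISH reads fluorescent barcodes over repeated rounds of imaging and so counts single RNA molecules in a tissue section. It had been run on 1 coronal section of 10 µm from each genotype, cut from whole heads that were flash frozen at E16.5 (embryonic day). The control (Ctrl) was *Sst-Cre/tdTomato*, from a cross of the Cre line Ssttm2.l(cre)Zjh/J with a tdTomato reporter in the *Rosa26* locus. The *Dnmt1* knockout (KO) was *Sst-Cre/tdTomato/Dnmt1 loxP2* and carried in addition the allele of B6; 129S-Dnmt1tm2Jae/J. Both genotypes therefore shared Cre and the reporter, and deletion of *Dnmt1*, a DNA methyltransferase gene, is driven by the *Sst* promoter in somatostatin-expressing cells, not in macrophages. The panel had no probe for *Dnmt1*, and the genotype could not be checked here.

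Microglia are the resident macrophages of the brain, and related macrophages live in the meninges, around vessels and in most other tissues. *Csf1r* encodes the receptor for the growth factors CSF1 and IL34, on which these cells depend. *Cx3cr1* encodes the receptor for fractalkine, a ligand made by neurons, and *C1qa* encodes a chain of C1q, which starts the classical complement cascade and takes part in tagging synapses. The 3 genes are shared by microglia and many tissue macrophages, whereas *Mrc1*, the gene of the mannose receptor, is a marker of macrophages at the borders of the brain. Of 35 myeloid and ligand genes that were listed beside the members, 3 were on the panel: *Mrc1*, *Aif1* (the gene of IBA1) and *Ccr2* (a chemokine receptor of monocytes). Genes often used to tell microglia from other macrophages, such as *P2ry12*, *Tmem119* and *Trem2*, were not.

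The Ctrl section held 108533 segmented cells with 2842355 panel transcripts and the KO section 110004 cells with 13437174, so the median cell had 20 transcripts in Ctrl and 101 in KO. No cell identifier was shared by the sections. Each genotype is 1 section from 1 run, so genotype and run cannot be told apart, no test was possible, and intervals in parentheses cover counting error only. Those of counts, shares and medians over cells are exact 95% intervals. Those of ratios and differences pair opposite ends of 2 such intervals, which for independent counts makes them wider than 95% intervals. All of them treat each transcript or cell as independent. A single KO cell held up to 44 *Csf1r* or 53 *Cx3cr1* transcripts, and positive cells, defined below, lay in groups, so intervals can be too narrow. For gene combinations, compartment densities and 1 ratio of pallial zones, KO values are also given "thinned". For this, each KO transcript was kept at random with a probability of 21.4%, which brings the KO section to the Ctrl depth. All other KO values stand at full depth. The match holds over the whole section, at a mean of 26.2 transcripts per cell in both. It does not hold in each compartment: thinned KO had 26.2 against 24.1 in the brain, 31.7 against 33.2 in the meningeal band and 24.6 against 34.3 in outer tissue. In a section, fewer cells of a type and less RNA per cell cannot be told apart from the summed transcripts.

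The probed transcripts differ in size, as annotated on GRCm39 by GENCODE: 22 exons and 6199 bases for *Csf1r*, 2 exons and 3758 bases for *Cx3cr1* (chr9:119877749-119897367, minus strand) and 3 exons and 1087 bases for *C1qa* (chr4:136623228-136626161, minus strand). The genes have different probes, so their counts are not compared with each other as levels. Segmented cells held 4039 *Csf1r*, 3075 *Cx3cr1* and 1345 *C1qa* transcripts in Ctrl, and 12515, 11756 and 6128 in KO. All 3 totals were above each of the 50 blank barcodes, which stand for no gene and measure false decoding, with a median of 248.5 transcripts per blank in Ctrl and 1181 in KO. Within the brain, *C1qa* came closer to this background: 5 of 50 blanks reached its 481 transcripts in Ctrl, and 2 of 50 reached its 2277 in KO. No blank reached *Csf1r* or *Cx3cr1* in the brain.

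Each section was divided by marker genes that do not include the members. The brain was the connected area in which 12 neural genes outweighed 6 connective tissue genes. It measured 9.64 mm² in Ctrl and 9.04 mm² in KO, and the pallium, the part that forms the cortex, 4.25 mm² and 3.79 mm² of it. The meningeal band was the tissue up to 100 µm outside the brain's edge. Everything farther out in the head was pooled as outer tissue. Areas enclosed by the brain but not part of it were kept apart as enclosed tissue, with no minimum of cells per bin. A cell with a transcript of at least 2 of the 3 genes is called positive. There were 1054 positive cells in Ctrl: 411 in the brain, 62 in the enclosed tissue, 176 in the meningeal band and 405 in outer tissue. The KO section had 2481, of which 954 were in the brain, 55 in the enclosed tissue, 540 in the band and 932 in outer tissue. In both sections more positive cells lay outside the brain than in it, so they are not called microglia here but by the genes they carry.

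**Figure D1:**
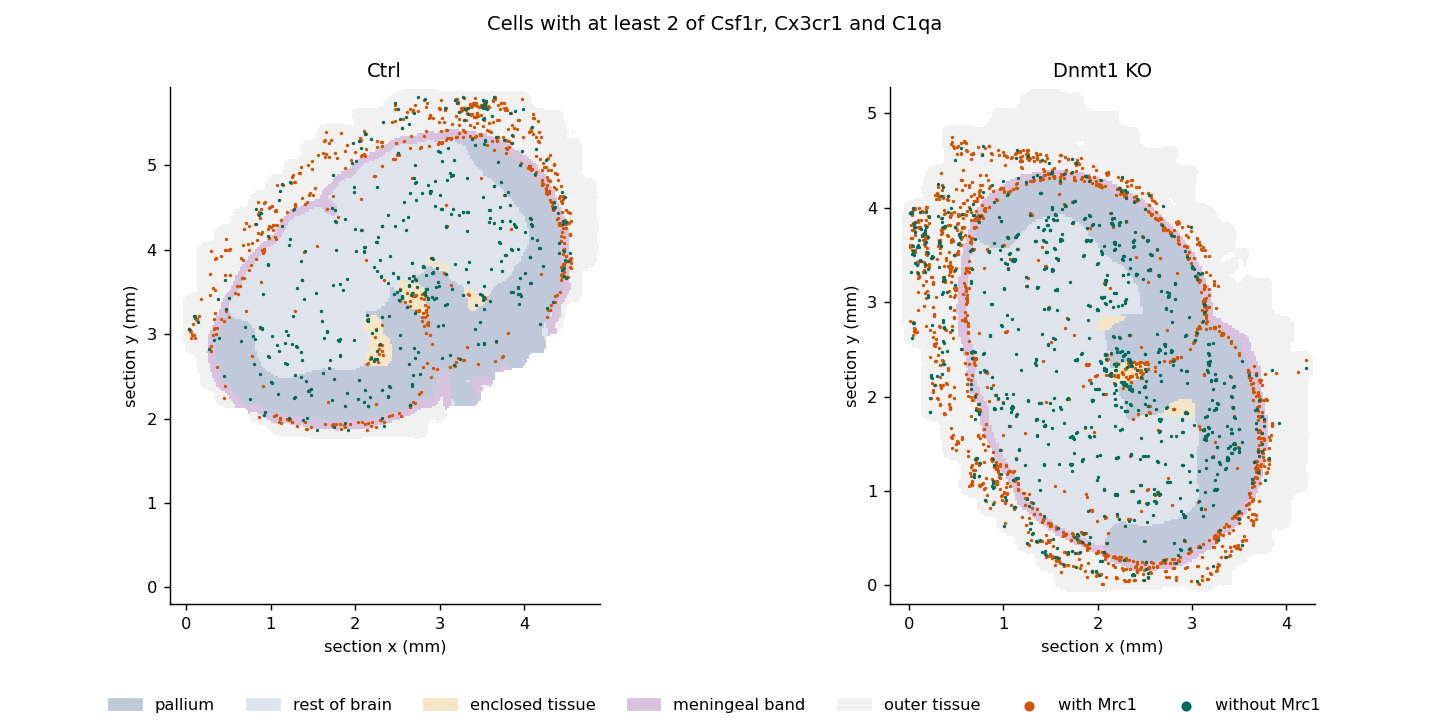
Positions of positive cells (at least 2 of the 3 genes) in the Ctrl and the KO section, axes in mm of the section, with the compartments shaded and cells coloured by whether they held a *Mrc1* transcript. Cells with *Mrc1* line the brain's edge and fill the outer tissue, and cells without it lie scattered through the brain, in both sections.

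The first question was how often the genes were found together in 1 cell. In Ctrl, 3109 cells held at least 1 of the 3 genes. Of these, 961 (30.9%) had *Csf1r* alone, 713 (22.9%) *Cx3cr1* alone and 381 (12.3%) *C1qa* alone. The most frequent combination was *Csf1r* with *Cx3cr1* in 465 cells (15.0%), followed by all 3 genes in 393 (12.6%). *Csf1r* with *C1qa* was found in 120 cells and *Cx3cr1* with *C1qa* in 76. In KO, 6601 cells held at least 1 gene, and all 3 were together in 1297 of them (19.6%; 18.7 to 20.6). After thinning this share was 11% (9.85 to 12.2), against 12.6% (11.5 to 13.9) in Ctrl, and these intervals overlapped. The thinned KO cells had less *Csf1r* with *Cx3cr1* (11.6%; 10.4 to 12.8, against 15.0%; 13.7 to 16.3) and more *Cx3cr1* with *C1qa* (4.63%; 3.89 to 5.46, against 2.44%; 1.93 to 3.05). Cells with at least 2 genes made up 33.9% (32.2 to 35.6) of cells with any in Ctrl and 37.6% (36.4 to 38.8) in KO, or 32.2% (30.5 to 34.0) after thinning.

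**Figure D2:**
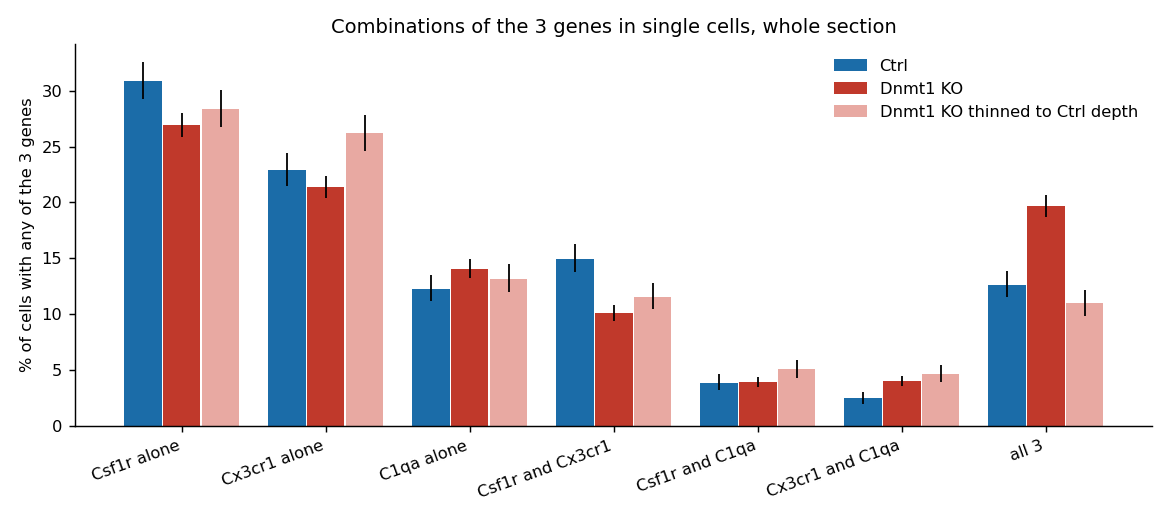
Share of each of the 7 combinations among cells with at least 1 transcript of the 3 genes, whole section, in percent, with exact 95% binomial intervals. The share with all 3 genes is 12.6% in Ctrl, 19.6% in KO and 11% in KO thinned to the mean depth of the Ctrl section.

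Most cells that carried a member carried 1 copy of it, and a larger share of cells with more copies carried the partner genes. A single transcript was all there was in 61.2% of the *Csf1r* cells, 62.7% of the *Cx3cr1* cells and 76.7% of the *C1qa* cells of Ctrl. In KO these shares were 56.9%, 50.1% and 60.9%. In Ctrl cells with 1 *Csf1r* transcript *Cx3cr1* was found in 27.1%, and in cells with 3 or more in 80.1%. The same step in KO was from 25.0% to 90.3%. *C1qa* was found beside 1 *Csf1r* transcript in 13.8% of cells in Ctrl and 15.6% in KO, and beside 3 or more in 57.2% and 80.8%. In the opposite direction, cells with 3 or more *C1qa* transcripts had *Csf1r* in 96.5% of 85 cells in Ctrl and in 96.4% of 685 in KO.

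Cells with a single member gene lay close to a positive cell more often than cells with none, though most did not. Of the 2055 Ctrl cells with exactly 1 of the genes, 35.1% (33.1 to 37.2) had the centre of a positive cell within 20 µm, against 5.39% (5.25 to 5.53) of the cells with none. In KO the shares were 41.9% (40.4 to 43.5) of 4120 cells and 9.90% (9.71 to 10.1). The contrast held within the brain, where positive cells are sparse, with 29.8% against 3.39% in Ctrl and 34.6% against 6.54% in KO. Positive cells themselves also lay in groups: the next positive cell was within 20 µm for 39.2% of those in the Ctrl brain and 70.5% of those in the KO brain. The median distance to it was 38.0 µm and 12.4 µm. The mean was 58.5 µm and 26.6 µm, against 76.6 µm and 48.7 µm for an even random spread at the same density. Density differed between the sections, so these distances are not compared between them. Whether such neighbours are separate cells or pieces of 1 cell that the segmentation divided was not tested. When positive cells within 20 µm of each other were counted once, the 411 of the Ctrl brain became 319 and the 954 of the KO brain became 505.

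Cells with neuronal genes gave a background for these shares. Brain cells with at least 3 transcripts of *Tbr1*, a transcription factor of deep-layer cortical neurons, had *Csf1r* in 0.815% of 4417 cells in Ctrl and 2.23% of 19548 in KO, with medians of 38 and 133 transcripts per cell. *C1qa* was found in 0.385% and 1.52% of them. At least 2 of the 3 genes were found in 0.249% (0.124 to 0.445) and 1.01% (0.877 to 1.16), or 11 and 198 cells. *Csf1r*, *Cx3cr1* and *C1qa* were in 36, 32 and 17 of the Ctrl cells and in 435, 385 and 298 of the KO cells. What set this background was not tested. Over all brain cells the share with at least 2 genes was 0.490% in Ctrl and 1.14% in KO, at medians of 19 and 100 transcripts. In KO it was thus within the interval of the *Tbr1* cells. Of the positive brain cells, 11 of 411 in Ctrl and 198 of 954 in KO were such *Tbr1* cells. Of all brain cells with a transcript, 4417 of 83935 in Ctrl and 19548 of 83657 in KO were such cells. Brain cells with at least 3 transcripts of *Gad2*, a gene of inhibitory neurons, were positive in 1.65% (0.341 to 4.74) of 182 cells in Ctrl, at a median of 48 transcripts, and 1.02% (0.827 to 1.24) of 9737 in KO, at 172. In KO the brain-wide share lay within the *Gad2* interval as well. In Ctrl it lay above the interval of the *Tbr1* cells and within that of the *Gad2* cells, which is too wide to decide. The background was not the same throughout: the pallial zone with the highest *Tbr1* level, described below, held 1.61 positive cells per 1000 in Ctrl and 3.74 in KO. Positive brain cells are therefore read as a possible mixture with this background in both sections. In the meningeal band 4.25% of Ctrl and 10.3% of KO cells were positive, and in outer tissue 2.91% and 5.65%. All 4 shares were above those of *Tbr1* cells, but both Ctrl shares were within the interval of the 182 *Gad2* cells.

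To see which panel genes go with the members, the number of cells that held both genes was divided by the number given by their frequencies within 10 strata of cells of similar depth. This ratio is called the lift. For each member the other members stood at the head of the 495 genes compared. The lift was 15.9 in Ctrl and 10.7 in KO for *Csf1r* with *Cx3cr1*, 15.1 and 11.1 for *Csf1r* with *C1qa*, and 16.3 and 12.2 for *Cx3cr1* with *C1qa*. A lift above 2 was rare across the panel: 4.44% of genes passed it for *Csf1r* in Ctrl and 6.06% in KO, 4.44% and 6.26% for *Cx3cr1*, and 4.85% and 6.26% for *C1qa*. The next 3 genes were the same for each member. *Blnk*, an adaptor of immune receptor signalling, had lifts of 8.19 to 10.8 in Ctrl and 6.43 to 6.97 in KO. *Mrc1* had 5.47 to 5.66 in Ctrl and 4.07 to 4.48 in KO, and *Aif1*, a calcium-binding protein of macrophages, 3.72 to 4.81 and 4.26 to 5.16. *Tbr1* was found with *Csf1r* less often than depth alone gave, at 0.44 in Ctrl and 0.63 in KO. All lifts were taken over every cell of a section with a transcript, whatever its compartment. The part of compartment in them was not tested.

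The other genes of positive brain cells were compared with those of other brain cells as counts per 1000000 panel transcripts (CPM), with the members left out of the totals. The background was taken over genes for which the level in other brain cells gives at least 20 expected transcripts in positive cells. Of these, 4.27% of 117 were over 2-fold higher in positive cells in Ctrl and 12.3% of 383 in KO. The genes named next were required to have 20 transcripts in the positive cells of both sections, so a gene that is low elsewhere could enter only by being higher there. *Mrc1* is in the background set of both sections, *Dcn* and *Hebp1* in that of KO, and *Blnk* and *Lsp1* in neither. *Blnk* had the highest fold, 44.2-fold higher (24.7 to 76.9) in Ctrl and 45.6-fold (37.3 to 55.6) in KO. *Mrc1* followed at 21.2-fold (18.8 to 23.9) and 20.9-fold (19.3 to 22.5). Next, by the lower fold of both sections, came *Dcn*, the gene of the matrix proteoglycan decorin made by fibroblasts, at 10.8-fold and 11.97-fold. *Lsp1*, which encodes an actin-binding protein of leukocytes, was at 17.2-fold and 10.3-fold, and *Hebp1*, which encodes a heme-binding protein, at 7.18-fold and 6.39-fold. *Fezf2* at 0.389 and 0.493 and *Tbr1* at 0.452 and 0.746, both transcription factors of cortical projection neurons, were lower in positive cells. *Dcn* and *Mrc1* are also abundant in the tissue just outside the brain, and the part of cells at the edge in their folds was not tested. Positive brain cells were larger than other brain cells, with a median volume of 1229 against 912 cubic micrometres in Ctrl and 1105 against 778 in KO. They also held more transcripts, with medians of 32 against 19 and 130.5 against 100. A larger or deeper cell is more likely to hold 2 of the genes, so the rule itself favours such cells, and no comparison at matched depth was made.

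*Mrc1* divided the positive cells by place. It was found in 26.5% (22.3 to 31.1) of positive brain cells in Ctrl and 29.5% (26.6 to 32.5) in KO. In the meningeal band the shares were 82.4% (75.9 to 87.7) and 85.4% (82.1 to 88.2), and in outer tissue 81.5% (77.3 to 85.1) and 78.9% (76.1 to 81.4). Brain cells that were not positive had *Mrc1* in 3.91% and 5.56%, so the brain value stands above this background. Most brain cells with *Mrc1* were nevertheless not positive. They numbered 3268 in Ctrl and 4598 in KO, against 109 and 281 positive brain cells with *Mrc1*. The order was the same with at least 2 *Mrc1* transcripts required: 17.0% in the brain, 70.5% in the band and 65.4% in outer tissue of Ctrl, and 16.2%, 72.8% and 65.2% of KO. *Aif1* was sparse, in 2.68% (1.34 to 4.74) of positive brain cells in Ctrl and 13.4% (11.3 to 15.7) in KO, against 0.201% and 1.02% of other brain cells. *Ccr2* was found in 0.243% and 0.943% of positive brain cells, close to the 0.175% and 0.776% of other brain cells. In outer tissue it was in 3.21% (1.72 to 5.43) and 5.90% (4.48 to 7.61) of positive cells.

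The change from cells without to cells with *Mrc1* took place across the outer margin of the brain. More than 400 µm inside the edge, 14.5% (10.3 to 19.7) of Ctrl and 21.1% (17.7 to 24.8) of KO positive cells had it. The share was 38.5% (20.2 to 59.4) and 40.3% (28.1 to 53.6) at 100 to 200 µm inside. It was 74.4% (57.9 to 87.0) and 74.1% (65.2 to 81.8) in the outermost 50 µm of the brain and 85.2% and 85.3% in the first 50 µm outside. Among cells that were not positive the *Mrc1* share also rose. More than 400 µm inside it was 3.09% in Ctrl and 3.85% in KO. In the outermost 50 µm it was 7.17% and 14.9%, and in the first 50 µm outside 11.3% and 20.3%. Density did not follow the same course. It was highest in the first 50 µm outside the brain, with 208 (172 to 250) positive cells per mm² in Ctrl and 634 (568 to 706) in KO. It was lowest inside the brain, at 22.1 (14.4 to 32.4) at 100 to 200 µm in Ctrl and 39.6 (24.5 to 60.6) at 50 to 100 µm in KO. More than 400 µm inside it was 45.3 (39.7 to 51.5) and 108.1 (99.2 to 117.6).

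**Figure D3:**
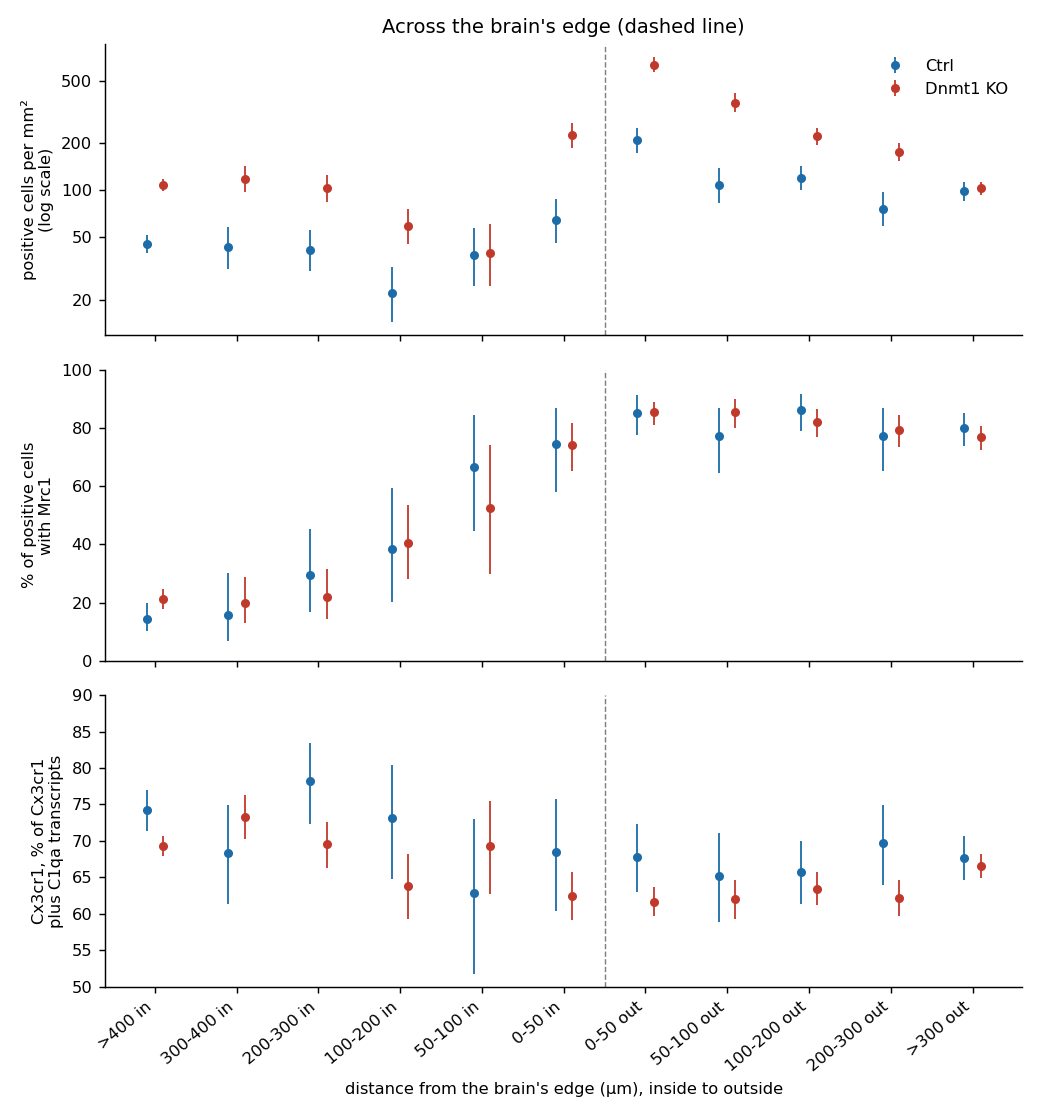
Positive cells per mm² (log scale), share of positive cells with *Mrc1* in percent, and *Cx3cr1* as a percentage of *Cx3cr1* plus *C1qa* transcripts, by distance from the brain's edge in µm, with exact 95% intervals. Density peaks in the first 50 µm outside the edge (208 in Ctrl, 634 in KO), and the *Mrc1* share climbs from 14.5% and 21.1% deep in the brain to 85.2% and 85.3% just outside.

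The balance of *Cx3cr1* and *C1qa* also differed between brain and surroundings. It is given as the *Cx3cr1* share of the transcripts of both genes, which does not depend on the panel total. False decoding enters it, and no count was corrected for blanks. The median blank of the brain held 190 transcripts in Ctrl and 884 in KO. Over the whole section it held 248.5 and 1181, where *C1qa* had 1345 and 6128. The part of false decoding in the shares below was not tested. The brain had 1302 *Cx3cr1* and 481 *C1qa* transcripts in Ctrl, a share of 73.0% (70.9 to 75.1) and a ratio of 2.71. The KO brain had 4991 and 2277, a share of 68.7% (67.6 to 69.7) and a ratio of 2.19. In the meningeal band the share was 66.8% (63.1 to 70.4) in Ctrl and 61.8% (60.2 to 63.4) in KO, with ratios of 2.01 and 1.62. In outer tissue it was 67.5% (65.2 to 69.7) and 64.7% (63.6 to 65.9), with ratios of 2.08 and 1.83. The brain was thus above the outer tissue by 5.52 points (1.18 to 9.84) in Ctrl and 3.95 points (1.71 to 6.19) in KO. With a wider brain outline, of bins over 30% neural, the Ctrl difference was 4.23 points (-0.058 to 8.51), an interval that takes in 0, and the KO difference 3.39 points (1.21 to 5.57). The difference was also taken among cells with a *Csf1r* transcript, a choice that uses neither gene. There it was 7.82 points (2.45 to 13.1) in Ctrl and 6.55 points (4.02 to 9.07) in KO. In each of these regions the KO share was below the Ctrl share. Genotype, run and depth cannot be told apart in that difference.

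The share was then split by *Mrc1*. Cells with *Csf1r* but no *Mrc1* had a *Cx3cr1* share of 77.0% (73.8 to 80.1) in the brain and 79.3% (70.8 to 86.3) in outer tissue of Ctrl. In KO the values were 72.7% (71.2 to 74.3) and 72.2% (67.5 to 76.5). Among these cells brain minus outer tissue came to -2.28 points (-12.5 to 9.27) in Ctrl and 0.553 points (-5.37 to 6.77) in KO, limits that pair opposite ends of both intervals. *Csf1r* cells with at least 2 *Mrc1* transcripts had 67.2% (60.1 to 73.8) in the brain and 65.9% (62.8 to 68.8) in outer tissue of Ctrl, and 64.1% (61.4 to 66.7) and 63.3% (61.9 to 64.7) in KO. Within the KO brain, cells without *Mrc1* were 8.66 points (4.46 to 12.9) above those with at least 2 transcripts. In the Ctrl brain the difference was 9.84 points (-0.0093 to 20.01), and in outer tissue 13.5 points (1.98 to 23.5) in Ctrl and 8.91 points (2.84 to 14.7) in KO. The Ctrl band, with 39 transcripts of both genes in cells without *Mrc1*, gave 2.19 points (-19.1 to 20.3), so no difference was detectable there at this depth, and the KO band gave 11.99 points (1.46 to 21.4). The enclosed tissue of Ctrl went the other way, with 64.6% (49.5 to 77.8) in cells without *Mrc1*, from 31 *Cx3cr1* and 17 *C1qa* transcripts, and 73.8% (63.1 to 82.8) in cells with at least 2, intervals that overlapped. In KO it had 71.0% (58.8 to 81.3) and 65.4% (59.2 to 71.2). The split by *Mrc1* was made after the values by compartment had been seen.

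Density was then compared between compartments of the same section. The Ctrl brain had 42.6 positive cells per mm² (38.6 to 47.0), the meningeal band 158 (135 to 183) and outer tissue 99.4 (89.97 to 109.6). The KO brain had 105.5 (98.9 to 112.4), the band 492 (452 to 536) and outer tissue 138 (129 to 147). The enclosed tissue, of 0.304 and 0.146 mm², had 204 (156 to 262) in Ctrl and 378 (285 to 492) in KO. Its area can take in bins without cells, unlike those of the band and outer tissue. On the log2 scale the band was above the brain by 1.89 (1.52 to 2.24) in Ctrl and 2.22 (2.01 to 2.44) in KO. Outer tissue was above the brain by 1.22 (0.94 to 1.50) and 0.39 (0.20 to 0.57). The outer tissue outlined in KO was larger, 6.75 mm² against 4.07 mm², and held 2949 cells per mm² against 4027. Whether it is the same tissue in both sections was not tested. Per 1000 cells with a transcript, positive cells numbered 4.90 in the brain, 42.5 in the band and 29.1 in outer tissue of Ctrl, and 11.4, 103 and 56.5 in KO. After thinning, the KO brain had 36.5 positive cells per mm² (32.7 to 40.7), where the full depth had put it above the Ctrl value of 42.6, and this interval overlapped that of Ctrl. The thinned band had 198 (172 to 226) and the thinned outer tissue 52.2 (46.9 to 57.9), where thinned KO cells had fewer transcripts than Ctrl cells (24.6 against 34.3). Counting cells within 20 µm of each other once gave 33.1 (29.6 to 36.9) in the Ctrl brain and 55.9 (51.1 to 61.0) in the KO brain at full depth.

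**Figure D4:**
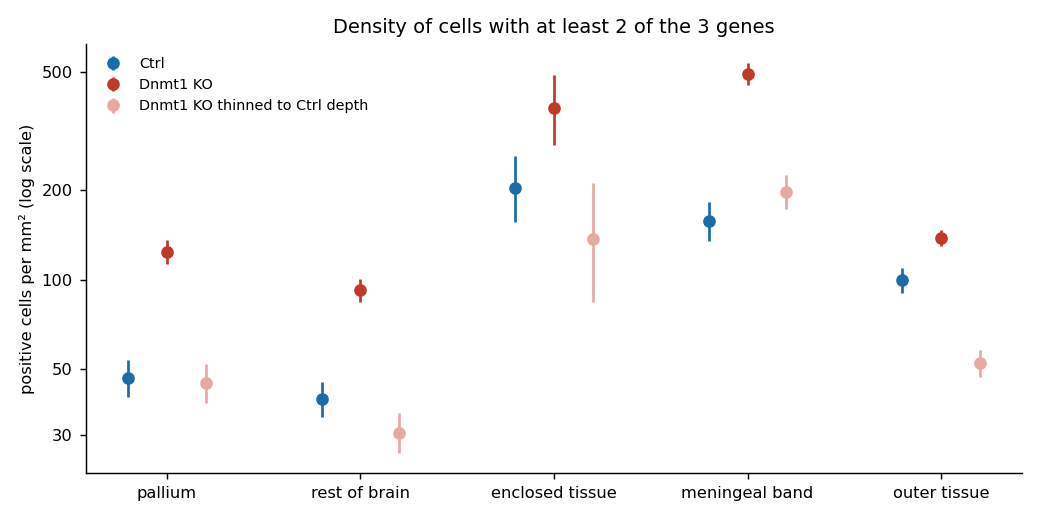
Positive cells per mm² (log scale) in each compartment of the Ctrl section, the KO section and the KO section thinned to the mean depth of the Ctrl section, with exact 95% Poisson intervals. In all 3 sets the meningeal band (158, 492 and 198) lies above the pallium (46.5, 124 and 44.9) and the rest of the brain (39.6, 92.2 and 30.5).

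The spread within a section was as large as some of these differences. On 1 side of the Ctrl brain there were 51.3 positive cells per mm² (45.5 to 57.7) at a median of 23 transcripts per cell, and on the other 31.6 (26.5 to 37.4) at 16. The sides of the KO brain had 94.6 (85.7 to 104.3) at a median of 105 transcripts and 115.6 (106.1 to 125.7) at 96. The denser side was the one with deeper cells in Ctrl and the one with shallower cells in KO. The part of depth in these differences was not tested.

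The pallium and the rest of the brain differed less. Positive cells numbered 46.5 per mm² (40.3 to 53.5) in the pallium and 39.6 (34.4 to 45.2) in the rest of the Ctrl brain, a log2 ratio of 0.23 (-0.17 to 0.64). In KO they numbered 124 (113 to 136) and 92.2 (84.2 to 100.8), a log2 ratio of 0.43 (0.17 to 0.69). The sides of a section were unequal in this: the log2 ratio was 0.06 (-0.43 to 0.55) and 0.47 (-0.24 to 1.18) in Ctrl, and 0.08 (-0.33 to 0.48) and 0.67 (0.32 to 1.02) in KO, so that only the second KO side had an interval above 0. The summed transcripts were higher in the pallium in both sections. In CPM, pallium over rest of brain was 0.66 (0.45 to 0.87) on the log2 scale for *Csf1r*, 0.57 (0.34 to 0.79) for *Cx3cr1* and 0.69 (0.32 to 1.06) for *C1qa* in Ctrl. The same log2 ratios in KO were 0.75 (0.63 to 0.88), 0.50 (0.39 to 0.61) and 0.69 (0.53 to 0.86). Genes of the brain's border were also higher in the pallium. The 6 connective tissue genes made up 0.291% of transcripts in the pallium and 0.141% in the rest of the Ctrl brain, and 0.242% and 0.113% in KO, and *Mrc1* was above the rest of the brain by 0.29 (0.16 to 0.41) and 0.96 (0.86 to 1.06) on the log2 scale. Their part in the difference was not tested.

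Within the pallium the positive cells were not evenly spread with depth. In Ctrl there were 47.1 per mm² (33.6 to 64.1) in the outermost 100 µm, 14.0 (7.0 to 25.1) at 100 to 200 µm and 53.8 (37.9 to 74.2) at 200 to 300 µm. The KO pallium had 124.9 (99.9 to 154.2), 40.8 (27.1 to 58.9) and 127 (101 to 158) at the same distances. The zone at 100 to 200 µm was the sparsest of the 6 zones in both sections, with intervals that did not overlap those of either neighbouring zone when both sides were pooled. Side by side, the contrast with the outermost zone was less even. That zone had 55.2 (36.7 to 79.8) and 35.0 (18.1 to 61.1) on the sides of Ctrl, against 15.4 (6.19 to 31.7) and 12.1 (3.31 to 31.1) in the sparse zone. In KO it had 62.0 (37.9 to 95.8) and 180 (139 to 229), against 33.9 (16.9 to 60.7) and 46.9 (27.3 to 75.1). The intervals overlapped on the second Ctrl side and the first KO side. Deeper zones held 36.4 to 70.2 positive cells per mm² in Ctrl and 146 to 158 in KO. The sparse zone was also the one with the highest *Tbr1* level of the 6, 58767 CPM in Ctrl and 60819 in KO. Per 1000 cells it held 1.61 positive cells in Ctrl and 3.74 in KO, against 6.22 and 14.3 in the zone beneath it. Its median of 20 transcripts per cell in Ctrl and 101 in KO was not below that of the zone beneath, 19 and 95.

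On the log2 scale the zone at 100 to 200 µm was below that at 200 to 300 µm. The ratio was -1.94 (-3.41 to -0.59) in Ctrl and -1.64 (-2.55 to -0.77) in KO. The zone in its numerator is the sparsest in these same data, and that choice favours a negative sign, pooled or by side. The ratio therefore gives the size of the dip and is not a test of whether the zone is sparse. Both sides of each section gave the same sign, -1.60 (-3.58 to 0.19) and -2.37 (-4.89 to -0.28) in Ctrl and -1.82 (-3.30 to -0.46) and -1.51 (-2.71 to -0.37) in KO, where the first Ctrl interval takes in 0. After thinning, the KO value was -1.73 (-3.30 to -0.28). With neighbouring positive cells counted once it was -1.62 (-3.22 to -0.14) in Ctrl and -1.31 (-2.59 to -0.10) in KO. Where the brain's edge was drawn farther in, by bins over 70% neural, the values were -0.98 (-2.20 to 0.20) in Ctrl and -0.91 (-1.67 to -0.16) in KO, so the Ctrl interval then took in 0.

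The zones also differed in the share with *Mrc1*. This gene was found in 65.0% (48.3 to 79.4) of positive cells in the outermost 100 µm of the Ctrl pallium and 76.7% (66.4 to 85.2) in KO, and in 12.9% (3.63 to 29.8) and 13.4% (6.89 to 22.7) at 300 to 400 µm. Positive cells without *Mrc1* were few in both outer zones: 16.47 per mm² (9.0 to 27.6) and 7.65 (2.81 to 16.6) in Ctrl, and 29.0 (17.7 to 44.8) and 27.7 (16.7 to 43.2) in KO. At 200 to 300 µm they numbered 40.7 (27.1 to 58.9) in Ctrl and 96.5 (73.6 to 124.2) in KO.

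**Figure D5:**
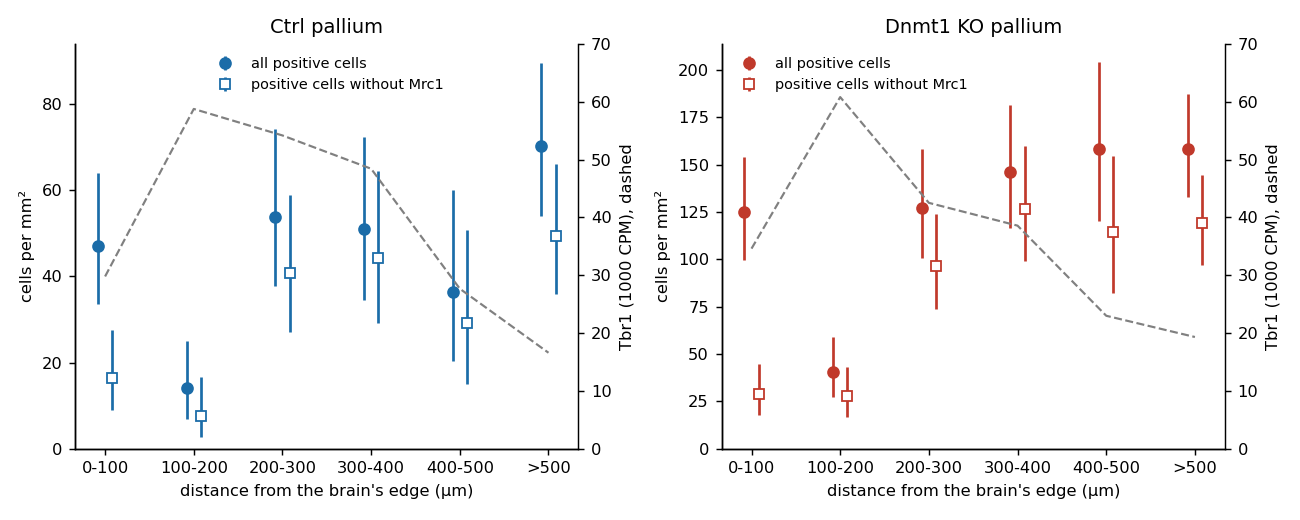
Positive cells per mm² in the pallium by distance from the brain's edge in µm, all (filled circles) and without *Mrc1* (open squares), with exact 95% Poisson intervals, and the *Tbr1* level in units of 1000 CPM (dashed line, right axis). The zone at 100 to 200 µm has the fewest positive cells, 14.0 per mm² in Ctrl and 40.8 in KO, and the highest *Tbr1* level.

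Positive brain cells lay somewhat nearer to vascular cells, defined as other cells with at least 2 of *Cldn5*, *Flt1*, *Aplnr* and *Adgrf5*, genes of endothelial cells. The median distance was 49.95 µm (44.8 to 57.8) for positive and 64.0 µm (63.7 to 64.4) for other brain cells in Ctrl, and 27.3 µm (25.0 to 29.0) against 34.1 µm (33.9 to 34.3) in KO. More than 100 µm inside the edge the medians were 58.3 µm (49.95 to 64.3) against 64.7 µm (64.3 to 65.0) in Ctrl and 28.5 µm (26.3 to 30.9) against 34.3 µm (34.1 to 34.4) in KO. Positive cells were themselves vascular by this rule in 4.62% of Ctrl and 15.5% of KO cells, against 0.994% and 3.46% of other brain cells. Vascular cells numbered 849 in Ctrl and 3010 in KO, so distances are not compared between the sections. Both rules ask for at least 2 genes, so both favour deeper cells. Depth and side were not matched, and their part in these distances was not tested.

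Finally, levels were compared between the genotypes as CPM of all panel transcripts in the same compartment. In the brain *Csf1r* was at 739 CPM in Ctrl and 410 in KO, *Cx3cr1* at 636 and 487, and *C1qa* at 235 and 222. The log2 ratio of KO over Ctrl was -0.85 (-0.97 to -0.73) for *Csf1r*, -0.38 (-0.50 to -0.26) for *Cx3cr1* and -0.08 (-0.27 to 0.11) for *C1qa*. None of the 3 passed a 2-fold difference in the brain, where 5.81% of 482 panel genes did. Over these genes the log2 ratio had a median of 0.05, and 90% of them lay between -0.79 and 0.82. *Csf1r* lay at percentile 4.36, *Cx3cr1* at 15.1 and *C1qa* at 38.4. *Mrc1* differed more in the brain, with 2059 CPM in Ctrl and 652 in KO, a log2 ratio of -1.66 (-1.74 to -1.58). With the members left out of the totals, it was at 38431 CPM in Ctrl and 10584 in KO in positive brain cells and at 1812 and 508 in other brain cells, so it differed in both.

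In the meningeal band and outer tissue the ratios of *Csf1r* and *Cx3cr1* were nearer 0 than in the brain, whereas that of *C1qa* in the band was farther from it. The median panel gene also stood higher there, at 0.19 in the band and 0.22 in outer tissue. Within the panel, *Csf1r* lay at percentile 9.42, *Cx3cr1* at 19.9 and *C1qa* at 32.2 in outer tissue. Their percentiles in the band were 24, 42.7 and 66.7. The genes compared differed by compartment, since each needed at least 100 transcripts there in both sections. In the meningeal band *Csf1r* was at 3896 CPM in Ctrl and 3524 in KO, *Cx3cr1* at 2640 and 2863, and *C1qa* at 1311 and 1771. The log2 ratios were -0.15 (-0.31 to 0.02), 0.12 (-0.08 to 0.32) and 0.43 (0.17 to 0.71), and none of the 3 passed 2-fold where 6.67% of 150 genes did. In outer tissue the ratios were -0.36 (-0.47 to -0.25), -0.14 (-0.27 to -0.01) and 0.04 (-0.14 to 0.22), again with none past 2-fold against 7.61% of 276 genes. In the enclosed tissue they were -0.43 (-0.78 to -0.08), -0.39 (-0.79 to 0.01) and -0.31 (-0.86 to 0.25), so *Cx3cr1* was as far from 0 there as in the brain. *Mrc1* was at -0.33 (-0.43 to -0.23) in the band and -0.28 (-0.35 to -0.21) in outer tissue, and in the enclosed tissue it was higher in KO, at 0.38 (0.09 to 0.68). In brain, band, outer and enclosed tissue alike *Csf1r* had the lowest and *C1qa* the highest ratio of the 3. Each member was higher outside the brain than in it in both sections. Band over brain was 2.40 and 3.10 on the log2 scale for *Csf1r* in Ctrl and KO, 2.05 and 2.55 for *Cx3cr1*, and 2.48 and 2.99 for *C1qa*. These ratios pass 2-fold, as do those of 13.5% of 207 genes in Ctrl and 21.2% of 397 genes in KO, taken over genes for which the brain level gives at least 100 expected transcripts in the band. *C1qa* was below that minimum in Ctrl. Outer tissue over brain was 1.99 and 2.48, 1.69 and 1.94, and 2.08 and 2.19, where 19.3% of 347 genes in Ctrl and 26.6% of 489 genes in KO were over 2-fold higher.

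Of all decoded *Csf1r* molecules, 84.5% in Ctrl and 81.1% in KO lay in segmented cells, as did 83.2% and 81.4% of *Cx3cr1* and 78.6% and 80.9% of *C1qa*, against 81.4% and 81.6% of all panel genes. The gap to all genes differed by compartment. In the brain *Csf1r* was at 83.4%, *Cx3cr1* at 81.3% and *C1qa* at 77.5% in Ctrl, where all genes were at 83.4%, and at 77.7%, 78.6% and 78.3% in KO, where all genes were at 83.0%. In the band they were at 83.5%, 82.4% and 73.3% against 72.5% in Ctrl, and at 81.9%, 82.2% and 82.0% against 76.2% in KO. Plane 0, the first of 7 imaging planes, held 32.6% and 27.4% of the *Csf1r* molecules, against 29.0% and 20.9% over all genes. Positive cells held 61.0% of the *Csf1r*, 64.0% of the *Cx3cr1* and 61.5% of the *C1qa* transcripts of the Ctrl brain, and 77.8%, 81.2% and 76.5% in KO. The remainder lay in cells with a single member gene.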

How the data were processed

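According to the methods, sections were imaged on the MERSCOPE platform with the Pan Neuro panel, and the authors deposited the counts that the instrument gave for every gene in every segmented cell, not normalized, with each cell's position and volume and the list of single molecules. The segmentation model is not given in the sources used here. The members, gene lists and tests were chosen with earlier results of these data known. Computation used scipy 1.17.1, pandas 2.3.3 and numpy 2.4.6 under Python 3.11.15, and plots matplotlib 3.10.9.

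All cells were kept, since a minimum of 20 transcripts would have kept 50.9% of Ctrl and 92.0% of KO cells. No doublet caller was run, because a segmented cell is not a droplet. Compartments were drawn on bins of 25 µm, smoothed with an SD of 50 µm, with at least 0.3 cells per smoothed bin and pallial parts of at least 0.3 mm². These settings were chosen after the sections had been seen. The minimum of cells was not applied to the enclosed tissue. The pallium was where 8 pallial genes exceeded 12 subpallial ones. The sides of a section are those of a 2-means split of the pallium.

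CPM uses panel transcripts without blanks. Counts have exact Poisson and shares exact Clopper-Pearson 95% intervals. Ratios pair opposite ends of both intervals. The panel-wide level ratios of KO over Ctrl use genes with at least 100 transcripts in the compartment in each section. Lifts use genes found in at least 100 cells of each section. Level ratios and lifts were tested on simulated data.

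Named genes were the members, the 5 highest lifts per member and the 5 highest folds in positive brain cells (the lower of both sections), and the listed myeloid genes on the panel. *Tbr1* and *Fezf2* were added after their values had been seen. No sequence is shown, and *Csf1r* coordinates are not reported here.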

Additional observations from a re-analysis of the deposited data

How the results depend on the processing

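The 15 main values were recomputed in 73 alternatives, of which 0 reversed a direction and 63 stayed within the main interval. Counting all decoded molecules of imaging plane 0, in cells or not, moved the *Csf1r* ratio of KO over Ctrl in the brain to -0.66, and all decoded molecules of every plane gave -0.75. The share of cells with at least 2 genes moved to 36.0% in Ctrl with a minimum of 20 transcripts. With at least 2 transcripts required per gene it moved to 40.8% in Ctrl and 54.8% in KO, and KO thinning gave 32.2%. The *Cx3cr1* share of the KO brain stood 6.55 points above outer tissue in *Csf1r* cells. The log2 density ratio of outer tissue over brain moved to 1.60 in Ctrl with a minimum of 20 transcripts and to 1.61 with all 3 genes required, and to 0.59 in KO with bins over 70% neural. Distances to vascular cells defined by at least 3 genes differed by -25.8 µm in Ctrl. The cause of these shifts was not tested. With bins over 70% neural the Ctrl log2 ratio of pallium over rest of brain was -0.01, the 1 value whose sign differed from a main value whose interval took in 0. Requiring all 3 genes left no Ctrl cell at 100 to 200 µm in the pallium, so no ratio was formed there. The main ratios of the pallial zones take the zone with the lowest density in these data, so their negative sign is favoured by that choice. The alternatives with *Csf1r* cells, with neighbours counted once, with cells over 100 µm inside the edge, and all those of the pallial zones were chosen after seeing the data. With 1 section per genotype no replicate could be left out, and no paired analysis was possible because each genotype has 1 sample.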
